A study of Mus musculus with 8 samples.

Results

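The cell cycle and DNA replication genes are a set of 36 named genes, of the 50599 records in each library and of the 19959 records that received an adjusted p in the comparison of genotypes. They were taken from a list of names drawn up with earlier results of these data known, and all 36 matched a record and received an adjusted p. By role, 13 are replication genes of S phase, 18 are mitosis genes and 5 are genes of the G1 phase and its exit. The libraries hold total RNA from whole hearts of 12-week-old male C57BL/6N mice, from 4 control and 4 knockout animals. The controls, labelled wildtype, carried loxP sites in both copies of Lrpprc (Lrpprc loxP/loxP), and the knockouts carried the same alleles with Cre recombinase, which removes Lrpprc in heart and skeletal muscle, since loss of the gene in the whole body is lethal in the embryo. The Cre driver is not given in the sources used here, both groups carry the loxP alleles, and cells of the heart in which Cre is not active keep the gene. Lrpprc codes for an RNA-binding protein that stabilises mitochondrial messenger RNAs.

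A dividing cell passes from G1, where D-type and E-type cyclins with their kinases release E2F transcription factors, into S phase, where the MCM helicase is loaded at origins and DNA is copied, and then into mitosis, where cyclin B with Cdk1 and a set of kinases and motor proteins separate the chromosomes. Genes for replication are switched on mainly by E2F, and genes for mitosis are switched on later through the CHR and CCAAT elements of their promoters. Adult heart muscle cells rarely divide, so that in a whole heart these genes are found at low levels and are also used by the other cells of the tissue, such as fibroblasts, endothelial cells and macrophages.

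The targeted gene was low in each library labelled knockout. Lrpprc (chromosome 17, 84705247 to 84790789, minus strand, GRCm38) had a normalised count of 3665 ± 216 (SD, n = 4) in wildtype and 577 ± 48.6 (SD, n = 4) in knockout (log2 fold change -2.67, DESeq2). Total expected counts lay between 35218541 and 47743376 a library. The libraries held the defining transcripts of heart muscle in every sample, with a summed level of 10 cardiomyocyte markers of 17440 to 19430 TPM in wildtype (TPM, a transcript's share of all transcripts corrected for length, scaled to a fixed sum) and 9860 to 11250 TPM in knockout. Of all genes with an adjusted p, 33.7% passed the threshold of 0.05 between the genotypes, 18.2% higher and 15.5% lower in knockout (3628 and 3100 genes). Scaling by total counts moved the median log2 fold change of all genes to -0.30 (1924 higher, 5912 lower), and the same scaling with mitochondrial rRNA taken out moved it to 0.43 (7917 higher, 1103 lower). A library stood apart for the genes described here. Knockout replicate 3, with a total of 43183714 expected counts, was the lowest of the 8 libraries in 12 of the 18 mitosis genes, in 5 of the 13 replication genes and in 2 of the 5 G1 genes, against 19.1% of all genes tested. Its normalised count had a median of 7.77% of the mean of the other 3 knockout libraries over the mitosis genes, 51.0% over the replication genes and 81.0% over the G1 genes, against 101% over the 15741 genes with a mean count of at least 10. Results are therefore given with and without that library.

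With all 8 libraries, 8 of the 36 genes passed the threshold (DESeq2, Wald test with Benjamini-Hochberg adjustment over all genes), beside 33.7% of all genes. All 8 were higher in knockout, beside 18.2% of all genes, while scaling by total counts gave 5 higher and 1 lower (Tyms), and the same scaling with mitochondrial rRNA taken out gave 24 higher and 0 lower. They were 2 replication genes (Pcna and Cdt1), 2 G1 genes (Ccnd2 and Ccne1) and 4 mitosis genes (Ccnb1, Cdk1, Kif11 and Tpx2). The median log2 fold change was 0.50 over the replication genes, 0.45 over the G1 genes and 1.30 over the mitosis genes, beside 0.01 over all genes tested. The groups did not overlap in 5 of the 36 genes, 4 of them with knockout above, beside 33.0% and 16.7% of all genes. edgeR called 7 of the 35 genes it tested, all higher, where it called 39.7% of all genes, 20.1% higher and 19.6% lower. Without knockout replicate 3, 26 of the 36 passed, 25 higher and 1 lower, beside 18.4% and 16.2% of all genes in these directions, and the medians were 0.44, 0.68 and 1.70. The count was 3 without knockout replicate 2 and 4 without knockout replicate 4, where 5827 of 19725 and 5772 of 19682 of all genes passed. It was 5 without wildtype replicate 1 and 5 without wildtype replicate 2, where 5556 of 19240 and 5528 of 19200 of all genes passed.

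**Figure D1:**
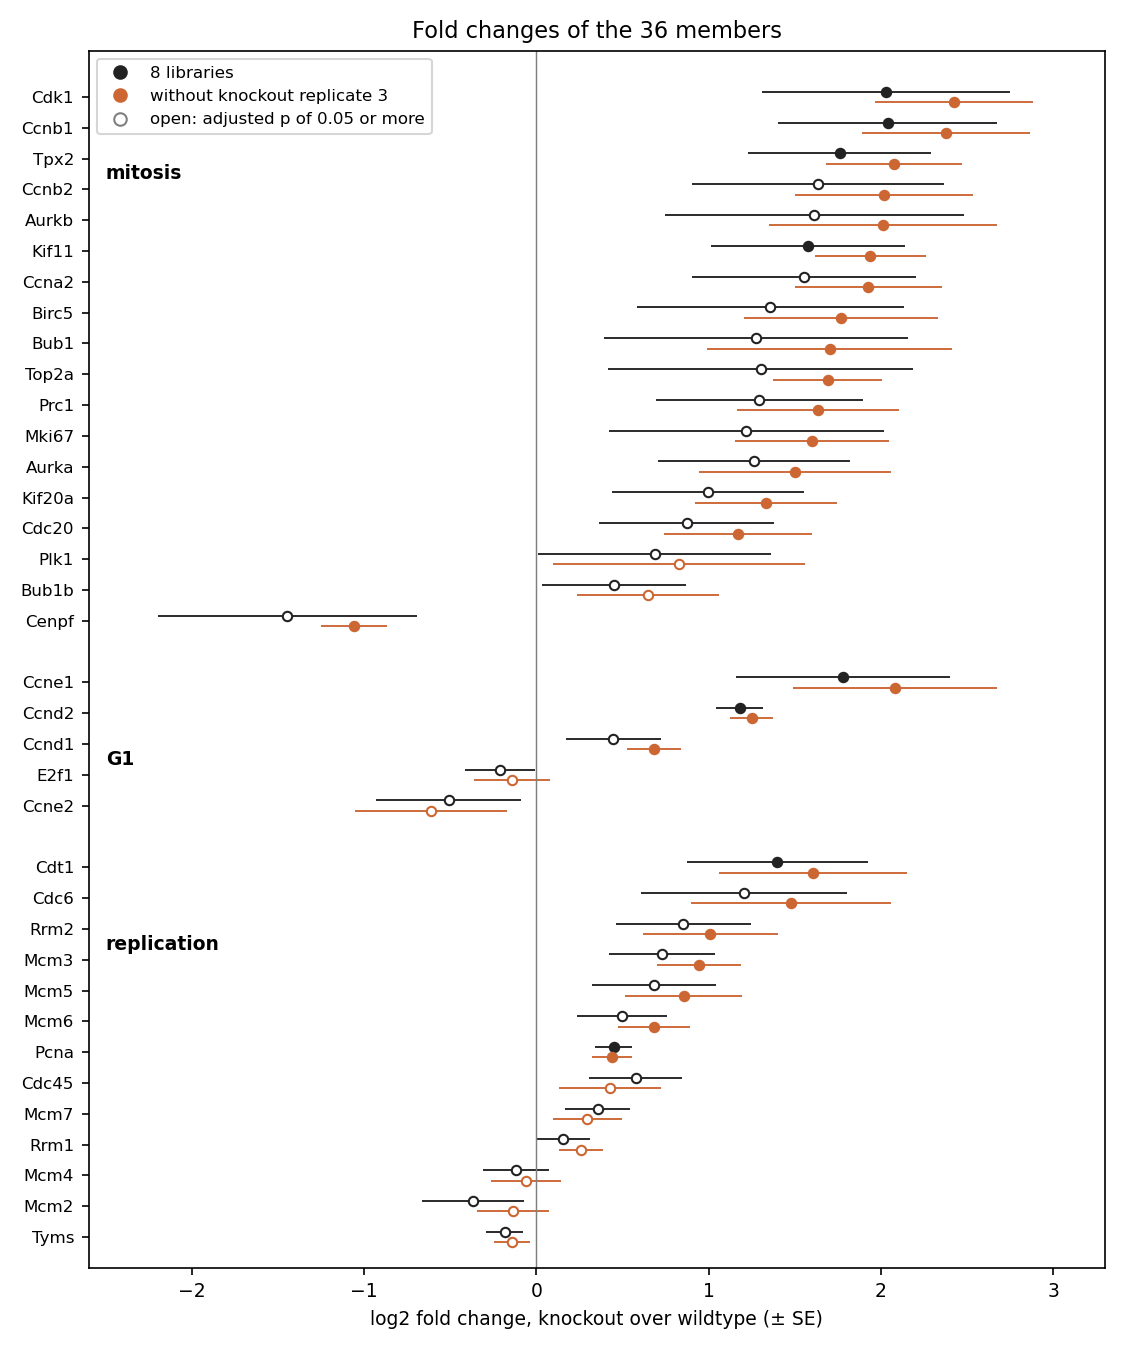
Log2 fold change of knockout over wildtype (x axis, ± SE) for each of the 36 genes (y axis), grouped by role and ordered by the value without knockout replicate 3, with black points for all 8 libraries, orange points without that library, and open points for an adjusted p of 0.05 or more. With 8 libraries 8 points are filled, and without knockout replicate 3 there are 26, of which Cenpf alone lies below 0.

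The promoters were searched for the CHR and CCAAT elements and the E2F core. The genes were grouped by known role, and, as said above, genes of these roles are switched on mainly through these elements. The counts therefore describe the set and are no independent test. RefSeq promoters of GRCm38.p6, 300 bases from 250 before to 50 after the start of the transcript, were found for 28 of the 36 genes, 12 of the replication genes, 14 of the mitosis genes and 2 of the G1 genes; Mcm7 and Prc1 have 2 entries each. Each element was searched on both strands. The CHR element was searched as TTTGAA and in the other form TTCGAA. The CCAAT element was searched as its own letters. The E2F core was searched as TTCCCGC and in the form TTGGCGC, and further with the form TTCGCGC and with the form TTGCCGC. A CHR was found in 12 of the 14 mitosis genes and in 3 of the 12 replication genes, beside 19.2% of the 32851 promoters in the table. A CHR together with a CCAAT was found in the same numbers of genes, 12 of 14 and 3 of 12, beside 7.52% of all promoters. An E2F core was found in 8 of the 12 replication genes and in 3 of the 14 mitosis genes, beside 9.57% of all promoters, and a CCAAT in 9 of 12 and 13 of 14, beside 37.4%. The G1 genes with a promoter, Ccne1 and E2f1, held 0 matches of the 3 elements in this window. However, the E2f1 window (chr2:154569377-154569676) lies inside its gene model, which ends at 154569892 on the minus strand. It misses the 5′ end of that model, so its 0 matches say nothing of the sequence there. Windows of Cdc6 and Mcm7 also lie inside their gene models. A match of the E2F core can share bases with a CCAAT, which it did in 1 replication gene and 1 mitosis gene. Ccnd1, Ccnd2, Ccne2, Mcm4, Ccna2, Aurkb, Kif20a and Tpx2 were not matched.

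The promoters of the 2 replication genes that passed the threshold, and of the 2 mitosis genes with a promoter in the table that had the lowest adjusted p, are printed as the genes the results turn on. Each is given 5′ to 3′ on the strand of the gene, with the matches of the 3 elements in capitals: Cdt1 at chr8:122567765-122568064 (plus), Pcna at chr2:132253131-132253430 (minus), Ccnb1 at chr13:100786437-100786736 (minus) and Cdk1 at chr10:69352863-69353162 (minus).
Cdt1: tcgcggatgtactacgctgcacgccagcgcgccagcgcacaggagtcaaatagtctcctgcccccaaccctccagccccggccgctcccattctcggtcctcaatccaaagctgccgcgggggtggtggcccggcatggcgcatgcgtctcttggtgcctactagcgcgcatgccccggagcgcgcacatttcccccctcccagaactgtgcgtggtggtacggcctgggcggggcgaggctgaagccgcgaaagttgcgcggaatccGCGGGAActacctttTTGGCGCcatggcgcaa
Pcna: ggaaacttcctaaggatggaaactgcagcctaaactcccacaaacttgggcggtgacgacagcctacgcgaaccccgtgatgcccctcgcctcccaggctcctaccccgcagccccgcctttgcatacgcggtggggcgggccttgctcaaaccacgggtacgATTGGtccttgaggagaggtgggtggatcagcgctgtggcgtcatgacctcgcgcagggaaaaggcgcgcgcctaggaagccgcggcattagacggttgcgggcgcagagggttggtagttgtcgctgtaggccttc
Ccnb1: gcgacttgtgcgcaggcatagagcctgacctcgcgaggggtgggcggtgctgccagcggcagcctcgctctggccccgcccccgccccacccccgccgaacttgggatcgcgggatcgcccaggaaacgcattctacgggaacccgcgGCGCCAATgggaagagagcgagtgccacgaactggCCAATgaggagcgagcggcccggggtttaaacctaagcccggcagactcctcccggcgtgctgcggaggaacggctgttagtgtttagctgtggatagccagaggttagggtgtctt
Cdk1: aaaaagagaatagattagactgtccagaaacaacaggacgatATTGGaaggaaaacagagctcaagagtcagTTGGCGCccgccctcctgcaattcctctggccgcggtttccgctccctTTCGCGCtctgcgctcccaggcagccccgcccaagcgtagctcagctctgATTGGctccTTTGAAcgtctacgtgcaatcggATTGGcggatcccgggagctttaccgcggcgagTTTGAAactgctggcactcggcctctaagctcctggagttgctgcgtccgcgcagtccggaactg
Cdt1 held 2 E2F cores and no other element, and Pcna held 1 CCAAT on the opposite strand. Ccnb1 held 2 CCAAT, the first of which shares bases with an E2F core, and no CHR, so that it is among the 2 of 14 mitosis genes without a CHR in the window; the other was Birc5. Cdk1 held 2 CHR, 3 CCAAT and 2 E2F cores. These matches describe the letters and show no binding.

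The replication genes load and run the helicase, build the clamp and make the nucleotides for DNA. Pcna, the sliding clamp that holds DNA polymerase on its template (ENSMUSG00000027342, chromosome 2, 132249162 to 132253314, minus strand), had normalised counts of 437.8, 382.4, 418.5 and 386.0 in the wildtype libraries (replicates 1 to 4, the order used throughout) and 560.4, 585.1, 565.4 and 507.5 in the knockouts. Every knockout library had a higher count than every wildtype library, and knockout replicate 3 was at 103% of the mean of the other knockouts. The log2 fold change was 0.45 ± 0.11 (SE, adjusted p = 0.000173, DESeq2), and it was 0.44 without knockout replicate 3 (adjusted p = 0.000708). Scaling by total counts moved it to 0.15 (adjusted p = 0.279).

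Cdt1, which loads the MCM helicase at origins (chromosome 8, 122568015 to 122573554, plus strand), had normalised counts of 11.8, 3.70, 12.5 and 8.63 in wildtype and 18.2, 42.1, 13.1 and 25.2 in knockout. After normalisation the groups did not overlap, but knockout replicate 3 lay close to wildtype replicate 3. The log2 fold change was 1.40 ± 0.52 (SE, adjusted p = 0.0254, DESeq2) and 1.61 without knockout replicate 3 (adjusted p = 0.0119). The expected counts behind it were 5 to 31 reads a library, and Cdt1 overlaps another protein-coding gene model on its strand, so that reads could be divided between them. The call was lost without wildtype replicate 2, wildtype replicate 4, knockout replicate 2 or knockout replicate 4 (adjusted p = 0.101, 0.0760, 0.147 and 0.0814, DESeq2), with scaling by total counts (adjusted p = 0.0881) and without the correction for length (adjusted p = 0.0818). Before normalisation its counts overlapped, with 12, 5, 16 and 12 in wildtype and 16, 19, 11 and 31 in knockout.

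The other 11 replication genes did not pass with all libraries. Their log2 fold changes lay between -0.37 (Mcm2) and 1.21 (Cdc6), with adjusted p from 0.0531 to 0.683 (DESeq2). Of these, 8 were above 0 and 3 below (Mcm2, Mcm4 and Tyms). Tyms, the thymidylate synthase that supplies dTMP, is the replication gene with the highest count, with 654.9, 677.4, 608.9 and 673.1 in wildtype and 548.1, 593.2, 518.9 and 639.2 in knockout. Knockout replicate 4 lay inside the wildtype range and the other 3 knockouts below it. Its log2 fold change was -0.18 ± 0.11 (SE, adjusted p = 0.185, DESeq2).

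The MCM genes, which code for the 6 subunits of one ring-shaped helicase, had log2 fold changes on both sides of 0. Mcm3 had the lowest adjusted p among them, with counts of 64.6, 51.8, 80.1 and 76.3 in wildtype and 118.7, 166.4, 56.0 and 111.3 in knockout, so that knockout replicates 1, 2 and 4 were above every wildtype library and replicate 3 was inside the wildtype range. Mcm2 had 105.2, 101.9, 124.3 and 128.9 in wildtype and 117.5, 111.4, 40.8 and 86.8 in knockout, where replicate 3 was again the lowest. Mcm3, Mcm5 and Mcm6 passed without knockout replicate 3, with log2 fold changes of 0.94, 0.85 and 0.68, while Mcm2, Mcm4 and Mcm7 did not, at -0.14, -0.06 and 0.29. These MCM genes were singled out after their values were seen.

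Without knockout replicate 3, 5 more replication genes passed, all higher: Mcm3, Mcm5, Mcm6, Cdc6, which loads the helicase with Cdt1, and Rrm2, a subunit of ribonucleotide reductase. This gave 7 of 13, beside 34.5% of all genes in either direction. Cdc45, which joins the helicase at firing, had its highest count in knockout replicate 3, with 66.7 there against 44.5, 38.9 and 52.1 in replicates 1, 2 and 4 and 33.0 to 34.7 in wildtype. The groups did not overlap for Cdc45, but its log2 fold change of 0.58 ± 0.27 did not pass (adjusted p = 0.0862, DESeq2). The count of replication genes that passed was 1 without wildtype replicate 2, wildtype replicate 4, knockout replicate 2 or knockout replicate 4. Of all genes, 5528 of 19200, 5554 of 19632, 5827 of 19725 and 5772 of 19682 passed in these fits, in that order.

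The G1 genes drive the entry into S phase. Ccnd2, a D-type cyclin that activates Cdk4 and Cdk6 (chromosome 6, 127125162 to 127152193, minus strand), had counts of 1569, 1755, 1602 and 1613 in wildtype and 4239, 3127, 3155 and 4295 in knockout. All 4 knockout libraries, replicate 3 included, were far above the wildtype range. The log2 fold change was 1.18 ± 0.14 (SE, adjusted p = 2.30e-16, DESeq2), and it stayed past the threshold under every alternative tried, between 0.89 with scaling by total counts and 1.62 where mitochondrial rRNA was taken out of those totals.

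Ccne1, the E-type cyclin that activates Cdk2 (chromosome 7, 38097984 to 38107534, minus strand), had counts of 2.94, 4.40, 16.3 and 6.18 in wildtype and 39.8, 29.0, 8.97 and 22.8 in knockout. Knockout replicate 3 lay inside the wildtype range and the other 3 knockouts above it. The log2 fold change was 1.78 ± 0.62 (SE, adjusted p = 0.0152, DESeq2), with 2 to 27 reads a library. The call was lost without wildtype replicate 1, 2 or 4 and without knockout replicate 1 or 2 (adjusted p = 0.0576, 0.0745, 0.0635, 0.0886 and 0.0593, DESeq2), each of which left 1 G1 gene past the threshold. Of all genes, 5556 of 19240, 5528 of 19200, 5554 of 19632, 6771 of 20241 and 5827 of 19725 passed in these fits, in that order.

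Ccnd1, the other D-type cyclin in the set, had counts of 784.7, 814.8, 1140 and 933.7 in wildtype and 1733, 1423, 579.4 and 1275 in knockout. Its highest 3 libraries were knockouts and its lowest was knockout replicate 3. The log2 fold change of 0.45 ± 0.27 did not pass (adjusted p = 0.21, DESeq2), and without that library it was 0.68 ± 0.16 (adjusted p = 7.44e-05, DESeq2), while total counts free of mitochondrial rRNA gave 0.89 (adjusted p = 0.00704). Ccne2, the second E-type cyclin, and E2f1, an activating E2F factor, had log2 fold changes of -0.51 and -0.21, and neither passed with or without knockout replicate 3.

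**Figure D2:**
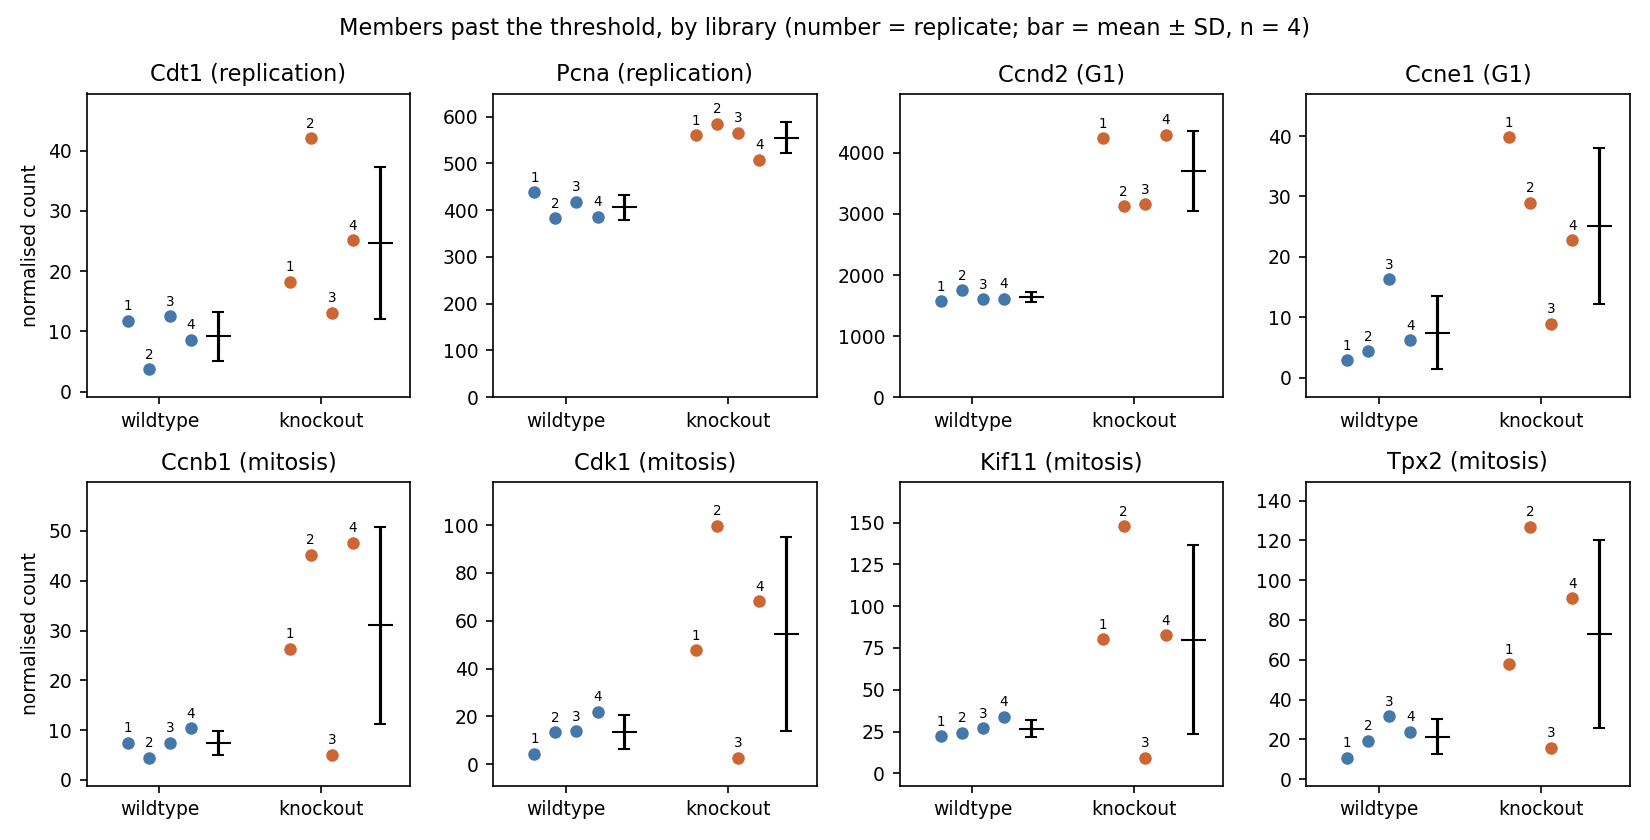
Normalised count (y axis, linear) of the 8 genes that passed the threshold with all libraries, in wildtype (blue) and knockout (orange), with a number at each point for the replicate and a bar for the mean ± SD of 4 libraries. Knockout replicate 3 lies with the other knockouts in Pcna and Ccnd2, and inside or below the wildtype range in the 4 mitosis genes.

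Of the 18 mitosis genes, 4 passed with all libraries. Cdk1, the kinase of mitosis (chromosome 10, 69335146 to 69352938, minus strand), had counts of 4.43, 13.4, 13.9 and 22.0 in wildtype and 47.7, 99.7, 2.71 and 68.2 in knockout. Ccnb1, the cyclin B that activates it (chromosome 13, 100778650 to 100786570, minus strand), had 7.52, 4.43, 7.51 and 10.4 in wildtype and 26.4, 45.3, 5.07 and 47.6 in knockout. In both, knockout replicates 1, 2 and 4 lay above every wildtype library, and replicate 3 lay below all wildtype libraries in Cdk1 and inside their range in Ccnb1. The log2 fold changes were 2.03 ± 0.72 (SE, adjusted p = 0.0174) for Cdk1 and 2.04 ± 0.64 (SE, adjusted p = 0.00575) for Ccnb1 (DESeq2). Without knockout replicate 3 they were 2.42 (adjusted p = 1.29e-06) and 2.38 (adjusted p = 8.56e-06, DESeq2). The call of Cdk1 was lost without wildtype replicate 1, knockout replicate 2 or knockout replicate 4 (adjusted p = 0.0669, 0.126 and 0.0699), and that of Ccnb1 without knockout replicate 4 (adjusted p = 0.0535, DESeq2).

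Kif11, the kinesin motor that pushes the spindle poles apart (chromosome 19, 37376403 to 37421859, plus strand), had counts of 22.2, 24.2, 26.9 and 33.8 in wildtype and 80.3, 147.8, 9.22 and 82.8 in knockout. Tpx2, a spindle assembly factor that activates Aurora kinase A (chromosome 2, 152847964 to 152895321, plus strand), had 10.7, 19.4, 31.7 and 23.8 in wildtype and 57.9, 126.9, 15.9 and 91.0 in knockout. Knockout replicate 2 was the highest library in both, and replicate 3 the lowest of the knockouts. The log2 fold changes were 1.58 ± 0.56 (SE, adjusted p = 0.0179) for Kif11 and 1.76 ± 0.53 (SE, adjusted p = 0.00434) for Tpx2 (DESeq2). Kif11 was lost without wildtype replicate 1 or 2 or knockout replicate 2 or 4 (adjusted p = 0.0584, 0.0524, 0.146 and 0.0527, DESeq2) in edgeR (adjusted p = 0.0536) and with scaling by total counts (adjusted p = 0.0587), and it overlaps a processed pseudogene on its strand, so that its reads could be divided. Tpx2 was lost without knockout replicate 2 (adjusted p = 0.0531, DESeq2).

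The other 14 mitosis genes did not pass with all libraries, with log2 fold changes from -1.45 (Cenpf) to 1.64 (Ccnb2) and adjusted p from 0.0508 to 0.476 (DESeq2). Of these, 13 were above 0. Mki67, the chromosome-coating protein used as a stain for dividing cells, had counts of 106.7, 151.9, 251.4 and 328.6 in wildtype and 528.7, 845.3, 42.3 and 534.7 in knockout, so that the highest 3 libraries and the lowest were all knockouts. Its log2 fold change was 1.22 ± 0.80 (SE, adjusted p = 0.248, DESeq2) and 1.60 ± 0.45 without knockout replicate 3 (SE, adjusted p = 0.00175, DESeq2). Top2a, the topoisomerase that untangles chromosomes, also had 3 knockouts highest and knockout replicate 3 lowest, with 42.2, 55.5, 95.8 and 108.8 in wildtype and 209.1, 335.1, 8.49 and 193.4 in knockout. It was singled out after its values were seen.

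Without knockout replicate 3, 11 more mitosis genes passed as higher: the cyclins Ccna2 and Ccnb2, the kinases Aurka, Aurkb and Bub1, the anaphase activator Cdc20, the passenger protein Birc5, the kinesin Kif20a, the spindle midzone protein Prc1, Mki67 and Top2a. With the 4 above and Cenpf this gave 16 of 18, beside 34.5% of all genes. Plk1 and Bub1b, a kinase of mitosis and a spindle checkpoint protein, did not pass with or without that library, though Bub1b did without the correction for effective length (log2 fold change 1.42 in place of 0.45, adjusted p = 1.26e-05, DESeq2). In 14 of the 18 genes knockout replicates 1, 2 and 4 were above every wildtype library, beside 20.8% of all genes, and in 12 of 18 knockout replicate 2 was the highest of the 8 libraries, beside 12.7%. Knockout replicate 3 was set aside because of its values in these same genes, so the comparison with all genes is a description only. Aurkb and Bub1 had 0 reads in knockout replicate 3, where a count of 0 allows up to 3. The count of mitosis genes that passed was 1 without knockout replicate 2 or knockout replicate 4, 2 without wildtype replicate 1 and 7 without wildtype replicate 3. Of all genes, 5827 of 19725, 5772 of 19682, 5556 of 19240 and 5986 of 19234 passed in these fits, in that order.

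Cenpf, a large kinetochore protein (chromosome 1, 189640606 to 189688086, minus strand), went the other way. Its counts were 451.1, 486.1, 296.1 and 405.6 in wildtype and 202.0, 216.9, 11.2 and 172.0 in knockout. All 4 knockouts were below all 4 wildtype libraries, and knockout replicate 3 was at 5.71% of the mean of the other knockouts. The log2 fold change of -1.45 ± 0.75 did not pass with all libraries (adjusted p = 0.128, DESeq2), and without knockout replicate 3 it was -1.06 ± 0.19 (adjusted p = 3.43e-07, DESeq2). Without the correction for effective length, which averaged 9225 bases in wildtype and 7596 in knockout, it was -1.92 (adjusted p = 0.0109, DESeq2). In wildtype it was the mitosis gene with the highest level per length, at 1.38 ± 0.283 TPM (SD, n = 4).

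**Figure D3:**
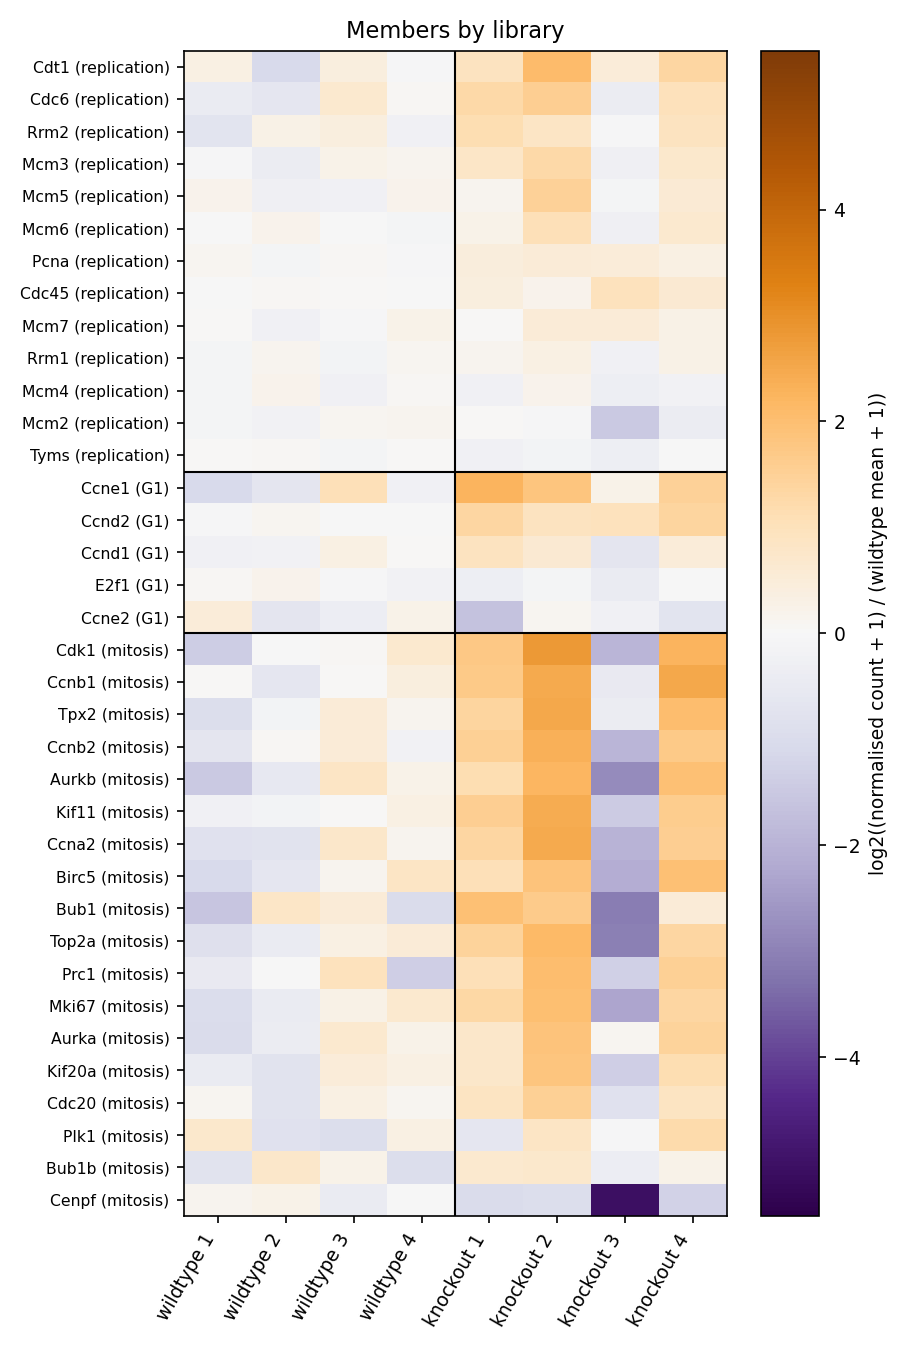
Log2 ratio of the normalised count plus 1 to the wildtype mean plus 1 (colour) for the 36 genes (y axis, by role) in each of the 8 libraries (x axis). Knockout replicates 1, 2 and 4 are orange over most mitosis genes while replicate 3 is purple, and the replication genes differ less between these libraries.

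The replication genes were then compared with the mitosis genes within each library, as the mean of log2(normalised count + 1) over each group of genes, with no test. The replication mean was 6.23, 6.15, 6.38 and 6.34 in the wildtype libraries and 6.69, 7.06, 6.22 and 6.78 in the knockouts. The mitosis mean was 3.90, 4.29, 4.85 and 4.64 in wildtype and 5.59, 6.38, 2.86 and 5.89 in knockout. Knockout replicates 1, 2 and 4 were above the wildtype range in both means, and replicate 3 was inside that range for replication and below it for mitosis.

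Knockout minus wildtype was 0.41 for replication and 0.76 for mitosis with all libraries, and 0.57 and 1.53 without knockout replicate 3. The replication mean minus the mitosis mean was 1.86 ± 0.34 (SD, n = 4) in wildtype and 1.51 ± 1.25 (SD, n = 4) in knockout, a change of -0.35 on the log2 scale that is smaller than the knockout spread. Without knockout replicate 3 the knockout value was 0.89 ± 0.21 (SD, n = 3), with the 3 libraries between 0.68 and 1.11 and the wildtype libraries between 1.53 and 2.33. On leaving out 1 library the change lay between -0.97 (without knockout replicate 3) and -0.07 (without knockout replicate 2). Knockout replicate 3 was at 3.36, above every other library, so that its mitosis genes were low relative to its own replication genes.

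**Figure D4:**
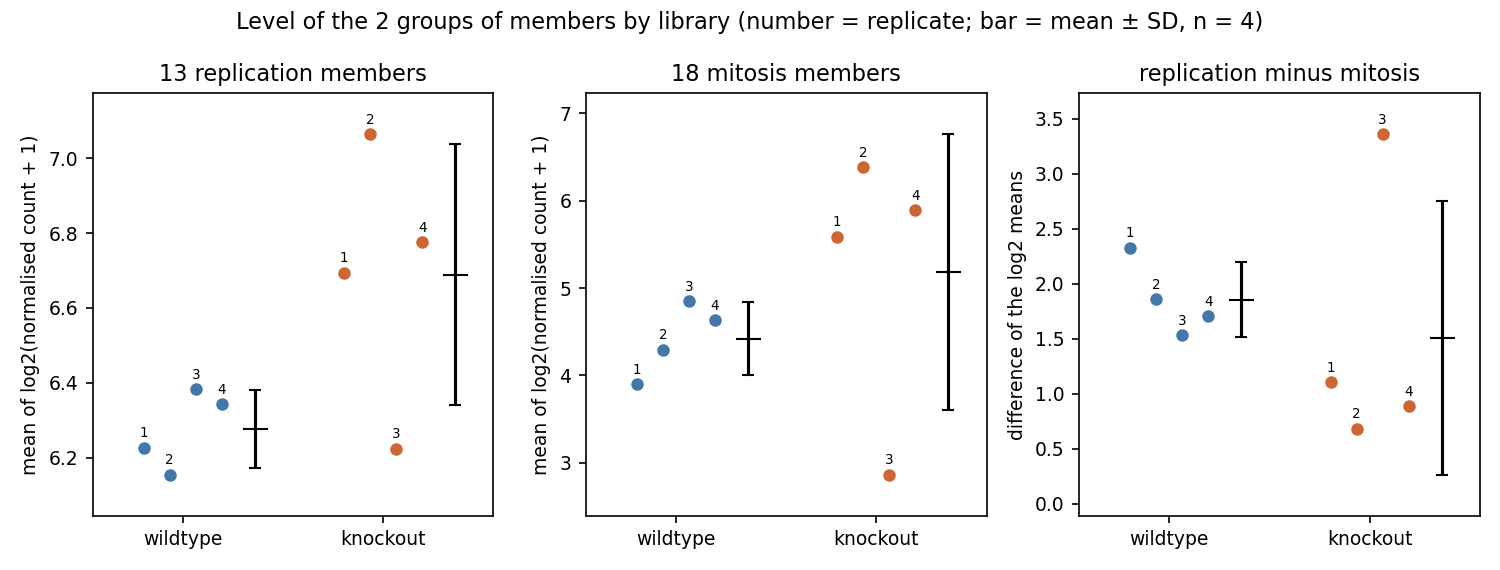
Mean of log2(normalised count + 1) over the 13 replication genes and the 18 mitosis genes, and the difference of the 2 means (y axes, which do not start at 0), for each library of wildtype (blue) and knockout (orange), numbered by replicate, with a bar for the mean ± SD of 4 libraries. Knockout replicate 3 lies at 2.86 for mitosis, below the wildtype range of 3.90 to 4.85, and at 3.36 for the difference.

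Per length, the genes spanned a wide range of levels. In wildtype Pcna had 8.52 ± 0.673 TPM, Ccnd2 8.0 ± 0.441 TPM, Ccnd1 7.37 ± 1.27 TPM and Tyms 6.11 ± 0.286 TPM (SD, n = 4), and no neighbours in this order differed by more than the larger of their SDs. The replication genes lay between 0.0825 TPM (Cdc6) and 8.52 TPM (Pcna) and the mitosis genes between 0.12 TPM (Bub1) and 1.38 TPM (Cenpf). The 18 mitosis genes summed to 4.68, 6.24, 7.79 and 7.01 TPM in wildtype and 11.5, 21.5, 1.64 and 15.4 TPM in knockout. The 13 replication genes summed to 26.0, 25.2, 25.1 and 25.2 TPM in wildtype and 25.9, 33.0, 23.0 and 30.2 TPM in knockout. TPM is a share of all RNA, mitochondrial RNA included, so these sums and the marker sums below move with that share too. Mitochondrial rRNA held 44 to 46.9% of the counts in the wildtype libraries and 65.6 to 67.8% in the knockouts.

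Markers of other cells also varied between the libraries. Of 11 macrophage markers, 8 were higher in knockout and 0 lower, and 11 were higher without knockout replicate 3. The count was 2 without knockout replicate 2, 3 without knockout replicate 4, 5 without wildtype replicate 2 and 2 with scaling by total counts, each with 0 lower. Their summed level was 92.9 to 129.7 TPM in wildtype and 120.7, 227.1, 80.7 and 205.8 TPM in knockout replicates 1 to 4, which is the order of the mitosis sums among the knockouts, although knockout replicate 1 lay inside the wildtype range. Of 10 fibroblast markers, 4 were higher and 1 lower, with a sum of 464.5 to 482.1 TPM in wildtype and 428.4, 682.3, 321.5 and 621.3 TPM in knockout, where replicates 1 and 3 were below the wildtype range. Gsn was the largest part of that sum in wildtype, at 239.8 ± 8.24 TPM against 132.8 ± 22.95 TPM in knockout (SD, n = 4). By normalised count, knockout replicate 1 was above every wildtype library in Col1a1, Col1a2, Col3a1, Lum, Tcf21 and Postn. It was below them all in Pdgfra, Dcn, Dpt and Gsn. The 10 endothelial markers gave 0 calls in either direction in DESeq2 (4 at an unadjusted p under 0.05) and 0 in edgeR (3 at an unadjusted p under 0.05), with 313.3 to 358.2 TPM in wildtype and 342.9, 301.7, 222.4 and 345.1 TPM in knockout, and the 9 mural markers gave 0 higher and 3 lower, with 101.8 TPM in knockout replicate 3, 122.1 to 145.6 TPM in the other knockouts and 202.0 to 212.8 TPM in wildtype.

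The endothelial calls changed with the setting, to 3 higher and 0 lower without knockout replicate 3, 1 and 3 without knockout replicate 1, 2 and 0 without the correction for length, 1 and 0 with the minimum of 10 counts, 0 and 3 with scaling by total counts, and 6 and 0 with mitochondrial rRNA taken out of those totals. The last 2 settings gave 0 higher and 6 lower, and 4 higher and 3 lower, for the mural markers. In knockout replicate 3 the macrophage, fibroblast, endothelial and mural lists were each at their lowest sum of the 8 libraries. Gene by gene, it was the lowest library in 3 of 11 macrophage, 4 of 10 fibroblast, 7 of 10 endothelial and 6 of 9 mural markers. This compares with 19.1% of all genes. Cd68, Cd163, Col1a2, Dcn, Postn and Flt1 were above every wildtype library there by normalised count. The 10 cardiomyocyte markers gave 1 higher and 7 lower, and the 5 atrial markers gave 1 higher and 2 lower, with sums of 872.6 to 1028 TPM in wildtype, 1165 TPM in knockout replicate 3 and 1560 to 1950 TPM in the other knockouts. The higher atrial sum is that of Nppa, at 495.3 ± 16.0 TPM in wildtype and 1508 ± 295 TPM in knockout (SD, n = 4), while Myl7 (258.3 and 20.4 TPM) and Sln (23.4 and 3.05 TPM) fell, and Myl4 (158.7 and 75.1 TPM) and Bmp10 (12.8 and 6.56 TPM) did not pass. The erythroid markers gave 0 calls of 7 tested and were at 2708 TPM in knockout replicate 3, 806.5 to 2601 TPM in the other knockouts and 1276 to 1615 TPM in wildtype. The lymphocyte markers gave 0 calls of 7 tested, at 0.41 to 1.2 TPM over all libraries. For the erythroid and lymphocyte markers both DESeq2 and edgeR gave 0 genes at an unadjusted p under 0.05 with all libraries. The erythroid list had 4 calls, all higher, without knockout replicate 1 and 3 with total counts free of mitochondrial rRNA, and the lymphocyte list had 1, higher, without wildtype replicate 2 and 1, higher, without the correction for length. In these libraries 0 markers of any list were at 0 in every library. The part of these cells in the levels of the cell cycle genes was not tested, and in whole hearts fewer dividing cells and less RNA per dividing cell cannot be told apart.

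**Figure D5:**
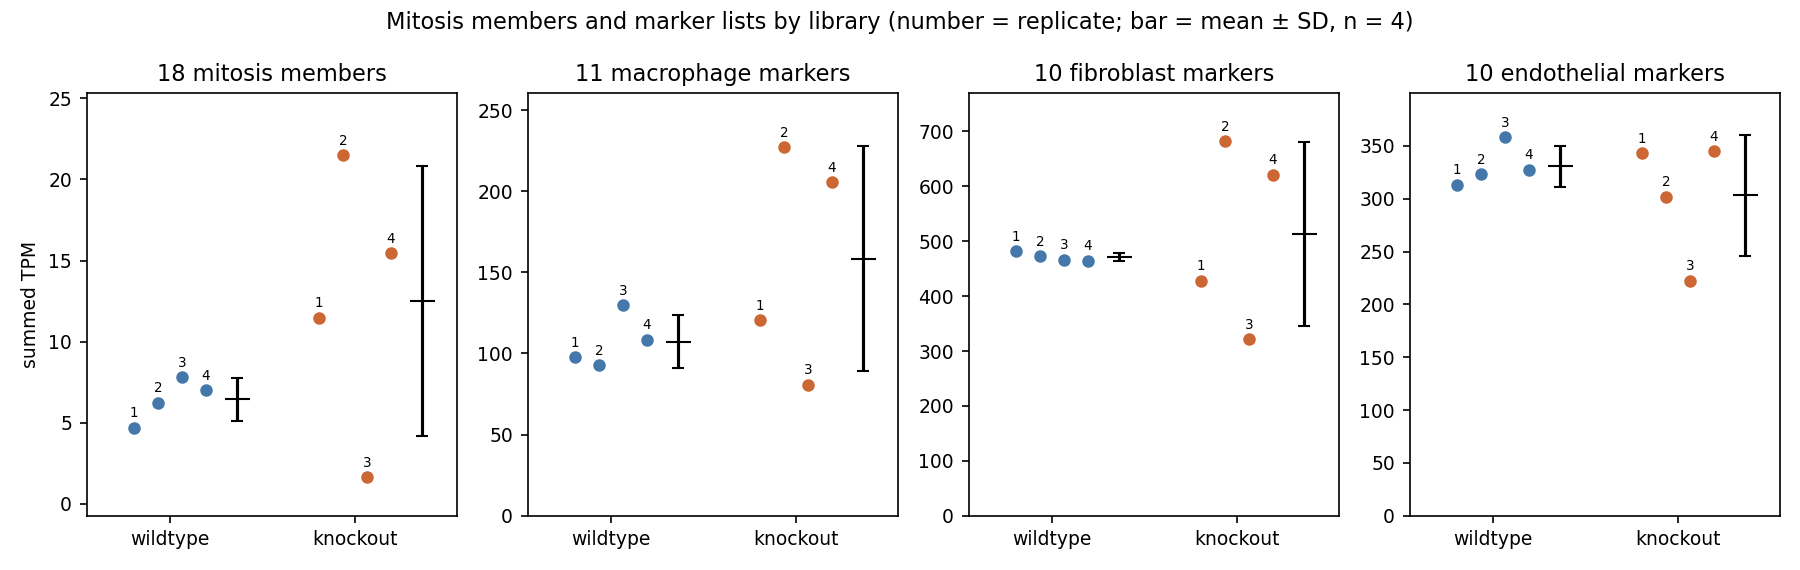
Summed TPM (y axes, from 0) of the 18 mitosis genes and of the macrophage, fibroblast and endothelial markers in each library of wildtype (blue) and knockout (orange), numbered by replicate, with a bar for the mean ± SD of 4 libraries. Knockout replicate 3 has the lowest sum of the 8 libraries in all 4 panels, and knockout replicates 2 and 4 have the highest in the first 3. Single markers within each list went both ways in knockout replicate 3.

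Further genes of the same processes were counted from longer lists. Of 51 other replication genes, 13 were higher and 2 lower (median log2 fold change 0.25), beside 18.2% and 15.5% of all genes, and without knockout replicate 3 there were 16 and 2. Pold4, the small subunit of DNA polymerase delta, had 92.4, 93.8, 106.6 and 101.9 in wildtype and 194.6, 217.5, 260.2 and 227.5 in knockout, a log2 fold change of 1.19 ± 0.16 (adjusted p = 2.34e-12, DESeq2). Chaf1a, the large subunit of the chromatin assembly factor, and Rfc3, a subunit of the clamp loader of Pcna, rose by 1.16 ± 0.23 and 0.91 ± 0.29. Dut, which removes dUTP, fell by 0.95 ± 0.18 on the log2 scale, from 161.6 to 182.1 in wildtype to 61.3 to 105.6 in knockout. The groups did not overlap in 11 of the 51 genes, 10 of them with knockout above, beside 33.0% and 16.7% of all genes. These 4 genes, picked as the largest changes past the threshold, were among them. Knockout replicate 3 was the highest library of Pold4 and Rfc3 and the lowest of Dut. The other gene that fell, named after its value was seen, was Gmnn, the geminin that binds and inhibits Cdt1, at -0.52 (adjusted p = 0.00628, DESeq2). With total-count scaling the split of this list was 5 higher and 6 lower, and Rfc3 was lost (adjusted p = 0.0654, DESeq2). With mitochondrial rRNA taken out of those totals the split was 29 and 1.

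Of 60 other mitosis genes, 17 were higher and 4 lower (median log2 fold change 0.99), beside 18.2% and 15.5% of all genes. Without knockout replicate 3 there were 40 and 4, beside 18.4% and 16.2%. Total-count scaling gave 10 and 4, and 42 and 1 with mitochondrial rRNA taken out. Ncapg2, a condensin subunit, had 47.6, 57.1, 53.0 and 49.1 in wildtype and 123.8, 147.8, 84.2 and 114.7 in knockout, so that the groups did not overlap and replicate 3 was the lowest knockout (log2 fold change 1.19 ± 0.23, adjusted p = 2.05e-06, DESeq2). Groups did not overlap in 12 of the 60 genes, beside 33.0% of all genes. Racgap1 and Anln, which act at the cleavage furrow of cytokinesis, rose by 1.12 ± 0.30 and 1.10 ± 0.34, and Aspm, a spindle pole protein, by 1.16 ± 0.43 (adjusted p = 0.0255, DESeq2). Aspm was lost without wildtype replicate 1, 2 or 4 or knockout replicate 1, 2 or 4 (adjusted p = 0.0788, 0.0986, 0.0868, 0.0686, 0.113 and 0.0799), and Racgap1 without the correction for length (adjusted p = 0.0507, DESeq2). Knockout replicate 3 was the lowest of the knockouts in 54 of the 60, beside 29.2% of all genes, and its median was 35.6% of the mean of the other knockouts. The count was 11 without knockout replicate 2 and 13 without wildtype replicate 1 or knockout replicate 4.

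The 4 other mitosis genes that fell, named after their values were seen, were Sgo2a, a protector of centromeric cohesion (-1.03), Spc24, a kinetochore subunit (-0.93), Cenpa, the centromeric histone H3 variant (-0.72), and Pttg1, the securin that inhibits separase (-0.57). Their wildtype means were 242.0, 83.5, 404.9 and 805.3 normalised counts in that order.

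Of 38 cell cycle regulators, 37 were tested, 6 were higher and 4 lower, beside 18.2% and 15.5% of all genes, and without knockout replicate 3 there were 7 and 5. Total-count scaling gave 5 and 10, and 18 and 0 with mitochondrial rRNA taken out, and leaving out the correction for length gave 10 and 4, where 3906 and 3415 of 20458 genes passed. Myc, a transcription factor of growth and division, had 20.6, 13.1, 25.4 and 31.1 in wildtype and 275.3, 226.6, 343.3 and 191.6 in knockout, a log2 fold change of 3.54 ± 0.29 (adjusted p = 3.06e-33, DESeq2). Cdkn1a, the inhibitor p21 of cyclin-dependent kinases, had 141.4, 124.6, 448.5 and 202.4 in wildtype and 922.7, 836.5, 1585 and 968.2 in knockout, a log2 fold change of 2.23 ± 0.47 (adjusted p = 1.94e-05, DESeq2). In both genes the groups did not overlap and knockout replicate 3, the lowest library for most mitosis genes, was the highest. Groups did not overlap in 9 of the 37 regulators tested, beside 33.0% of all genes.

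E2f3, an activating E2F, rose by 1.09 ± 0.20 and E2f6, a repressing E2F, fell by 0.68 ± 0.14 on the log2 scale, a call that E2f6 did not keep once mitochondrial rRNA was taken out of the total-count scaling (adjusted p = 0.192, DESeq2). Cdkn1c, the inhibitor p57, had 232.2, 220.5, 219.6 and 171.0 in wildtype and 86.4, 125.6, 191.8 and 144.7 in knockout (log2 fold change -0.62 ± 0.24, adjusted p = 0.0273, DESeq2). That call was lost on leaving out any of wildtype replicates 1, 2 and 3 or knockout replicates 1, 2 and 4, with adjusted p up to 0.0974 (DESeq2). Cdkn1b, the inhibitor p27, had a log2 fold change of -0.21 ± 0.11, and the kinases Cdk2, Cdk4 and Cdk6 had 0.18, 0.21 and 0.35, none of which passed (adjusted p = 0.112, 0.596, 0.302 and 0.0664, DESeq2). Cdk6 passed without knockout replicate 3 (adjusted p = 0.0113), all 3 kinases passed without the correction for length, and Cdkn1b passed as lower with total-count scaling (adjusted p = 0.000437, DESeq2).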

How the data were processed

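The study measured RNA from whole hearts in 4 wildtype and 4 Lrpprc knockout libraries, grouped by the sample titles. Cytoplasmic rRNA was depleted and random-primed TruSeq libraries were sequenced on an Illumina HiSeq. The authors made the deposited expected counts with RSEM 1.2.31 and bowtie2, counting strand, on the transcripts of GENCODE M13 joined with mitochondrial rRNA and mRNA sequences of their own that end in a run of adenines. Since RSEM shares out reads with several possible sources, an expected count can be a fraction. The deposited TPM values and the effective lengths in bases are also from RSEM by the authors. A deposited table of the authors' own comparison (fold changes and p-values) and a table of normalised counts with 8 columns whose names match no sample label were not used.

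Expected counts were rounded and fitted with DESeq2 1.42.0 in R 4.3.3 (a single genotype term, size factors by median of ratios, effective length as an offset, lengths of 0 set to 1, default independent filtering, Wald test, Benjamini-Hochberg over 19959 genes, threshold 0.05). Normalised counts are corrected for depth and length, a pseudocount of 1 was added before logarithms, and TPM was used for levels per length. Gene symbols and coordinates came from GENCODE M21 (GRCm38), which named 50339 of 50563 Ensembl identifiers, and promoters from RefSeq (GRCm38.p6). Depth was 35218541 to 47743376 expected counts a library, and a count of 0 allows up to 3 counts, which covers counting error only. Each library is 1 animal, and p-values measure the spread between these libraries.

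The alternatives were edgeR 4.0.16 with TMM (quasi-likelihood), leaving out the length offset, a filter of 10 or more counts in 4 libraries, no independent filtering, nuclear size factors, scaling by total counts (mitochondrial rRNA kept or taken out), the replicate number as a block, and leaving out each library. The fits were tested on simulated data. Genes past the threshold are named with every library's value, then the 2 genes of each role with the highest count, the 4 largest changes of each longer list with a mean of at least 50, Cdkn1a, Cdkn1b, Cdkn1c, Cdk2, Cdk4 and Cdk6, with others said to be chosen after their values were seen. The members and lists were chosen with earlier results of these data known.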

Additional observations from a re-analysis of the deposited data

Results flagged for a closer look

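Within each group of 4 libraries, the highest and the lowest value were compared with the nearest other value by Dixon's gap test. This was done for the 36 genes, Lrpprc, the genes named by rule from the longer lists and the scores. Of the 114 groups tested, 5 had a library past the 95% critical value, and chance gives about 1 in 20 groups, which is 5.7 here. The groups share the same libraries and are not independent, so 5.7 is a rough guide. The replication mean minus the mitosis mean was 3.36 in knockout replicate 3, against 0.685 to 1.11 in the other knockouts. Lrpprc had 504.3 normalised counts in knockout replicate 2, against 597.4 to 605.4. E2f3 had 429.9 in knockout replicate 2, against 261.0 to 276.2. Cdk6 had 369.2 in wildtype replicate 1, against 495.5 to 498.5, and Dut had 161.6 in wildtype replicate 3, against 179.3 to 182.1.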

How the results depend on the processing

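The counts of genes past the threshold depended on single libraries and on scaling, while 0 named genes changed sign with a call. Leaving out each library gave 3 to 26 of the 36 genes, 1 to 7 of the replication genes, 1 to 16 of the mitosis genes, 1 to 3 of the G1 genes, and 11 to 44 of the other mitosis genes, with the highest values without knockout replicate 3. Total-count scaling moved the median log2 fold change of all genes to -0.30 (1924 higher, 5912 lower) and total counts without mitochondrial rRNA to 0.43 (7917 higher, 1103 lower), against 3628 higher and 3100 lower in the main setting. With total counts the replication genes gave 1 call, Tyms, which was lower. Without mitochondrial rRNA there were 24 calls among the 36 genes, 10 among replication genes, 11 among mitosis genes, 30 among other replication genes, 43 among other mitosis genes and 18 among regulators. Without the length offset 1 replication gene and 7 mitosis genes passed (6 higher, 1 lower). Same-numbered libraries did not deviate together (correlations -0.08 to 0.04, and 1 of 4 pairs correlated best with its own number), and the replicate block gave 5 of the 36 genes (4 higher, 1 lower), 1 replication gene, 1 G1 gene, 3 mitosis genes (2 higher, 1 lower), 13 other mitosis genes (9 higher, 4 lower) and 1 endothelial marker, which was lower, where 5496 of 18982 of all genes passed (2916 higher, 2580 lower). Under the block Cdt1, Ccne1, Cdk1 and Kif11 did not pass and Cenpf did (log2 fold change -1.91, adjusted p = 0.0385, DESeq2). edgeR, the minimum of 10 counts, no independent filtering and size factors from nuclear genes kept the counts of the 36 genes, their 3 roles and the 3 longer lists within 1.5 times. The replication mean minus the mitosis mean, knockout against wildtype, stayed below 0, from -0.97 to -0.07 on leaving out a library; edgeR, no independent filtering and the block could give no value for it. Counts of 2 to 61 reads a library limit Cdt1, Ccne1 and Ccnb1. The causes were not tested.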
